A study of Mus musculus with 6 samples.

Results

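The 38 genes described here run, time or restrain the cell division cycle. They were listed by name, with earlier results of these data known, out of 21631 protein-coding genes on the autosomes and the X chromosome. They are 7 replication genes, 11 mitosis genes, 6 genes of E2F factors and pocket proteins, 3 G1 kinase genes, 5 G1 cyclin genes, 4 cell cycle inhibitor genes and 2 Myc genes. An open chromatin peak was given to a gene when the gene body nearest to the peak's summit was that gene, at a distance of at most 100 kb. On this rule 103 of 44018 pSHF peaks and 112 of 49267 HT peaks belonged to the 38 genes, 215 in all. Being nearest describes position alone, and a peak may act on another gene.

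Open chromatin was measured by ATAC-seq, in which the transposase Tn5 cuts accessible DNA and tags it for sequencing. 3 samples came from the posterior second heart field (pSHF), a progenitor tissue dorsal to the heart, and 3 from the atria (HT). Both came from wild-type (WT) embryos of the CD1 strain at embryonic day 10, with no transgene or treatment named in the labels, and were microdissected, pooled and dissociated. Only 1 peak list per tissue was analysed, so no value below has a replicate, an SD or a test between tissues, and intervals cover counting error over peaks or reads only.

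Before a cell copies its DNA, D-type and E-type cyclins with their kinases phosphorylate the pocket proteins, which releases E2F factors to switch on replication genes, and inhibitors of the Cip/Kip and INK4 families hold those kinases back. Mitotic genes are switched on later, and many of their promoters carry a CCAAT box and the cell cycle genes homology region (CHR), through which the DREAM complex keeps them silent in resting cells. In the embryonic heart, cardiac progenitors are known to divide quickly, and the cardiomyocytes formed from them keep dividing before birth.

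The lists had close coverage, with a background pileup of 0.857 reads per position in the pSHF list and 0.824 in the HT list. Atrial muscle genes separated the tissues. 7 such markers had 5 peaks in the pSHF list, of which 0 were absent from the HT list, and 28 in the HT list, of which 24 were absent from the pSHF list, and Nppa, Myh6, Ttn and Nkx2-5 had no pSHF peak. 6 pSHF markers had 34 pSHF peaks and 27 HT peaks. Foxf1 had 8 and 2 of them, Isl1 6 and 5, Aldh1a2 5 and 4, Osr1 4 and 3, Hoxb1 4 and 4, and Tbx5 7 and 9. Foregut endoderm markers had 22 pSHF and 18 HT peaks, and epicardial markers 18 and 16. Markers of blood and endothelium also differed, with 4 erythroid and 19 endothelial peaks in the pSHF list against 16 and 35 in the HT list. The erythroid markers Hbb-bh1 and Gata1 and the endothelial marker Tie1 had no pSHF peak. The other endothelial markers had some, with 7 pSHF and 13 HT peaks at Kdr, 4 and 8 at Cdh5, 1 and 5 at Pecam1 and 7 and 7 at Nfatc1. The part of these cell types in the results below was not tested. In bulk tissue, fewer cells of a type and less accessible DNA per cell cannot be told apart.

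Nearly every cell cycle gene had an open site at its end in both tissues. By fold over local background, the sites of replication and mitosis genes were among the most enriched of each list. A gene-end peak is one whose summit lies within 1 kb of either end of the gene, and its height is the authors' fold enrichment over the peak caller's local background. Such a peak stood in both lists at 33 of 38 genes, counting peaks nearest to an overlapping or adjoining gene, against 55.9% of all protein-coding genes. At 12 of 38 genes the strongest gene-end peak was at or above percentile 90 of the pSHF list by fold enrichment, against 18.6% of all genes, and at 12 it was so placed in the HT list, against 18.4%. These shares include genes without a gene-end peak. Among genes with one, it was 12 of 33 cell cycle genes and 4031 of 12664 genes in the pSHF list. In the HT list it was 12 of 35 and 3981 of 12815. Of the 18 replication and mitosis genes, 11 reached that percentile in the pSHF list and 11 in the HT list. Of the 9 G1 cyclin and inhibitor genes, 0 did so in the pSHF list and 0 in the HT list. The gene-end rule leaves out starts inside a gene. At such a start of Cdkn1a, 54 bp away, an HT peak counted as distal had 11.6-fold enrichment, at percentile 90.7 of its list. The median fold enrichment of the strongest gene-end peak was 9.16 in the pSHF list and 11.7 in the HT list for replication and mitosis genes. For G1 cyclin and inhibitor genes with such a peak it was 6.57 in the pSHF list (6 genes) and 8.73 in the HT list (7 genes).

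**Figure D1:**
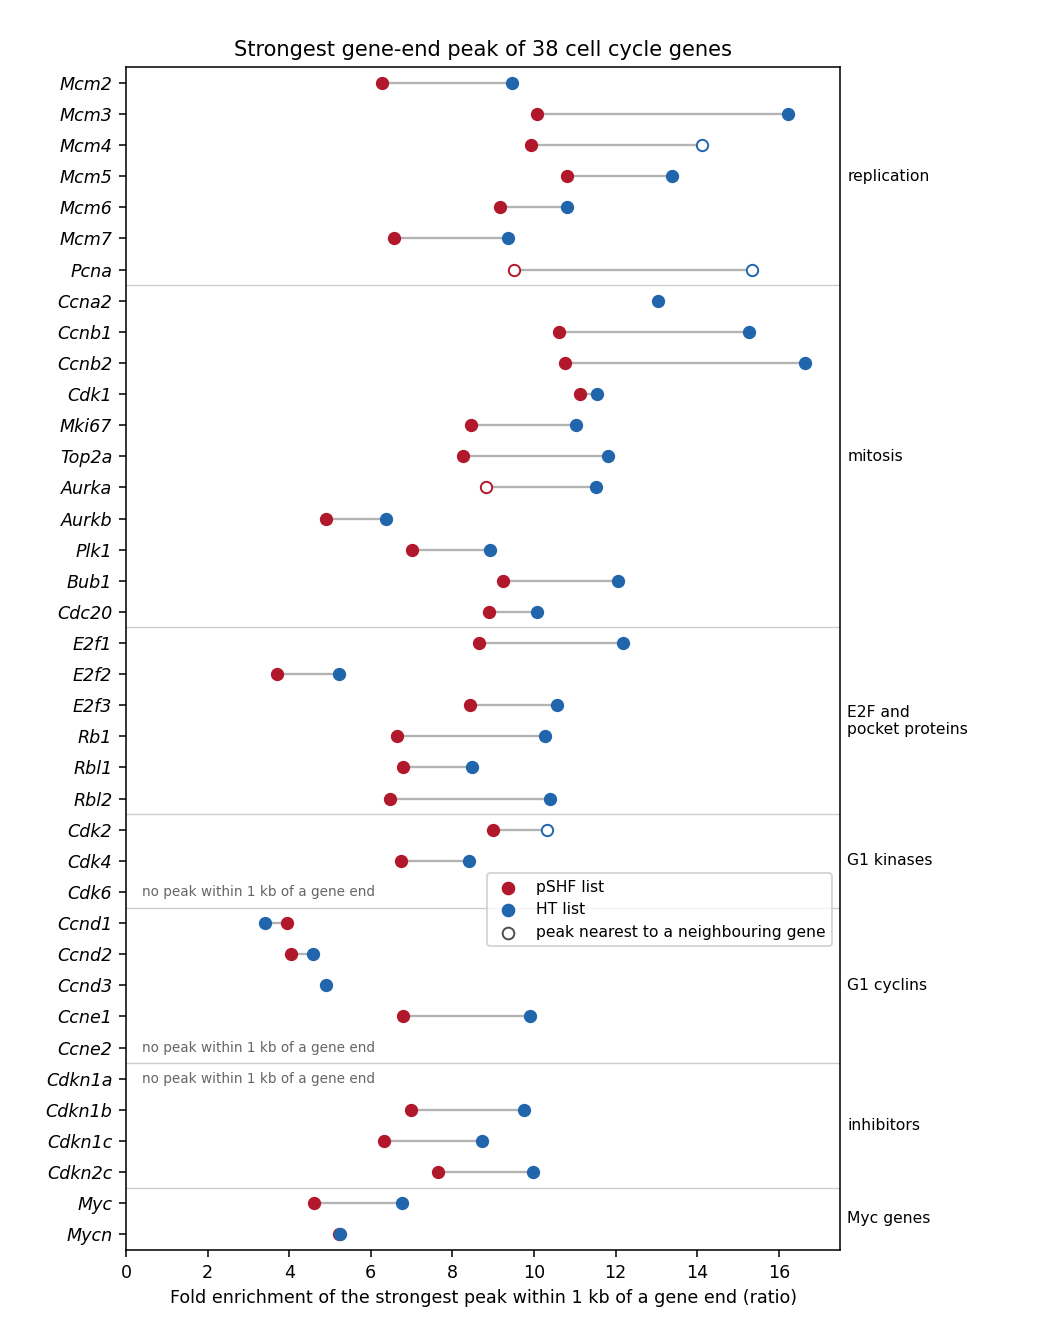
Fold enrichment (ratio, horizontal axis) of the strongest peak within 1 kb of an end of each of the 38 genes (vertical axis, by role), with red points for the pSHF list, blue points for the HT list and open points for peaks nearest to a neighbouring gene. Replication and mitosis genes mostly lie to the right of the D-type cyclins and Myc genes in both lists, and Cdk6, Ccne2 and Cdkn1a have no such peak.

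The replication genes had strongest gene-end peaks of 6.28- to 10.8-fold enrichment in the pSHF list and 9.36- to 16.2-fold in the HT list. Mcm2 to Mcm7 encode the subunits of the helicase that unwinds DNA at replication forks, and Pcna encodes the clamp that keeps DNA polymerase on its template. Mcm3 had a peak of 10.1-fold enrichment in the pSHF list and 16.2-fold in the HT list. Mcm5 had 10.8-fold in the pSHF list and 13.4-fold in the HT list. The Mcm4 peak had 9.93-fold enrichment in the pSHF list and 14.1-fold in the HT list. Its HT summit was nearer to Prkdc, the adjoining gene of a DNA repair kinase, so that Mcm4 had 0 HT peaks of its own. Mcm2 had the lowest pSHF value of the class, 6.28-fold, against 9.46-fold in the HT list. Pcna had its own peak of 6.62-fold in the pSHF list and 7.90-fold in the HT list, beside a peak of 9.50-fold in the pSHF list and 15.4-fold in the HT list that was nearest to Cds2. Each of the 7 replication genes was therefore marked at an end in both lists.

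The mitosis genes showed the same picture, with Aurkb as the weakest. Ccnb1 and Ccnb2 encode B-type cyclins, which activate the kinase encoded by Cdk1 at the entry into mitosis. Ccnb2 had 10.7-fold enrichment in the pSHF list and 16.6-fold in the HT list, the highest HT value among the 38 genes. Ccnb1 had 10.6-fold in the pSHF list and 15.3-fold in the HT list. Cdk1 had 11.1-fold in the pSHF list, the highest pSHF value among the 38 genes, and 11.5-fold in the HT list. Mki67 encodes the proliferation marker Ki-67, a coat protein of mitotic chromosomes. Its gene-end peak had 8.45-fold enrichment in the pSHF list and 11.0-fold in the HT list. Ccna2, the cyclin A gene, had 13.0-fold in the HT list, and its pSHF peak of 10.7-fold lay 1051 bp inside the gene, just beyond the 1 kb limit. The Aurka peak had 8.81-fold in the pSHF list, where its summit was nearest to the adjoining gene Cstf1, and 11.5-fold in the HT list. Aurkb, which encodes a kinase of the chromosomal passenger complex, had 4.91-fold in the pSHF list and 6.38-fold in the HT list.

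Among the regulators upstream of replication that had a gene-end peak, E2f2, the D-type cyclins and the Myc genes had the lowest ones. E2f1 encodes an activating E2F factor, and its peak had 8.66-fold enrichment in the pSHF list and 12.2-fold in the HT list. E2f3, of the same class, had 8.43-fold in the pSHF list and 10.6-fold in the HT list. Rb1, the retinoblastoma gene, had 6.64-fold in the pSHF list and 10.3-fold in the HT list. E2f2 stood apart with 3.70-fold in the pSHF list and 5.21-fold in the HT list, in peaks that did not overlap between the lists. The kinase genes Cdk2 and Cdk4 had 8.99- and 6.74-fold in the pSHF list and 10.3- and 8.40-fold in the HT list, the HT peak of Cdk2 being nearest to the adjoining gene Pmel. Cdk6, the other partner kinase of the D-type cyclins, had no gene-end peak, but RefSeq lists a start inside the gene with a peak 100 bp away of 4.13-fold in the pSHF list and one 45 bp away of 3.92-fold in the HT list. The cyclin gene Ccne1 had 6.80-fold in the pSHF list and 9.90-fold in the HT list. Ccne2 had 1 peak per list, of 7.05-fold in the pSHF list and 8.21-fold in the HT list, at 1113 and 1258 bp inside the gene. The D-type cyclin gene Ccnd1 had 3.96-fold in the pSHF list and 3.40-fold in the HT list. Ccnd2 had 4.04-fold in the pSHF list and 4.59-fold in the HT list. Ccnd3 had no gene-end peak in the pSHF list and one of 4.90-fold in the HT list. At a second listed start, inside Ccnd3 and beyond the 1 kb limit, a shared peak had 6.64-fold in the pSHF list and 6.70-fold in the HT list. The inhibitor genes Cdkn1b (p27), Cdkn1c (p57) and Cdkn2c (p18) lay between 6.33- and 7.64-fold in the pSHF list and between 8.73- and 9.98-fold in the HT list. Myc, which drives cell growth and division, had 4.60-fold in the pSHF list and 6.76-fold in the HT list. Mycn, its relative expressed in many embryonic progenitors, had 5.22-fold in the pSHF list and 5.24-fold in the HT list.

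Low fold enrichment went with few reads at some of these genes and with a high local background at others. The whole number of reads over a summit (pileup) was recovered from the deposited fold and p-value. Ccnd2 had a pileup of 28 reads in the pSHF list and 28 in the HT list, over a local background of 6.17 and 5.32. Myc had 27 reads in the pSHF list and 46 in the HT list, over 5.09 and 5.95. Ccnb2 had 27 reads in the pSHF list and 43 in the HT list, over 1.60 and 1.65. Ccnd2 and Myc thus had as many reads at the summit as Ccnb2 in the pSHF list, and their lower fold went with a higher local background. Ccnd1 had 25 reads in the pSHF list and 16 in the HT list, over 5.57 and 3.99. E2f2 had 11 reads in the pSHF list and 16 in the HT list, over 2.24 and 2.26, where the median summit had 13 and 14. The HT peak of Ccnd3 had 17 reads over 2.67. In reads at their own strongest gene-end peaks the groups compared above overlapped. Replication and mitosis genes had 21 (Aurkb) to 49 (Mcm5) in the pSHF list and 28 (Aurkb) to 61 (Mcm5) in the HT list. G1 cyclin and inhibitor genes had 25 (Ccnd1) to 32 (Cdkn1c) and 16 (Ccnd1) to 52 (Ccne1). The contrast of these groups is thus one of fold over local background, and whether it holds in reads was not tested.

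RefSeq promoter windows, from 250 bases before to 50 after a listed start in build GRCm38.p6, were at hand for 29 of the 38 genes. They were not matched for Mcm4, Ccna2, Aurkb, Rb1, Ccnd1, Ccnd2, Ccne2, Cdkn1c and Myc. For the genes with a window, all 38 pSHF and all 33 HT gene-end peaks had their summits within 1 kb of a listed start. The first 200 bases before the start are printed in reading direction of the gene for 6 promoters, to set the sites of replication and mitosis genes beside that of Mycn. They were picked after the peak values were seen. Capitals mark the letters searched on both strands: E2F (TTTCCCGC, TTTCGCGC, TTTGCCGC or TTTGGCGC), CHR (TTTGAA) and the CCAAT box (CCAAT), where ATTGG is a CCAAT box and TTCAAA a CHR on the other strand. In Mcm5, Mcm6 and Mycn, E2F letters of both strands overlap and form 1 longer run of capitals. Hits in the windows but outside the printed bases are not shown. They are a CHR of Ccnb2 at positions 5 to 10 counted from the start, and CCAAT boxes of Mcm5 (7 to 11) and Cdk1 (-208 to -204).
Mcm5, chr8:75109309-75109508, plus strand: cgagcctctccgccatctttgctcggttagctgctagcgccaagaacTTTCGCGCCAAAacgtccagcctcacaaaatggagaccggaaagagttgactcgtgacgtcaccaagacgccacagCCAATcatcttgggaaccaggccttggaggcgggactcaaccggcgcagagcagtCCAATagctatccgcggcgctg
Mcm6, chr1:128359706-128359905, minus strand: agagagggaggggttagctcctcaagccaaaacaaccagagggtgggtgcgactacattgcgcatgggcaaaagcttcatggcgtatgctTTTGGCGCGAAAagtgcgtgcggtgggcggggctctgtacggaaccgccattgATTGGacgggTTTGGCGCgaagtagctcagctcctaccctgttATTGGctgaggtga
Ccnb2, chr9:70421555-70421754, minus strand: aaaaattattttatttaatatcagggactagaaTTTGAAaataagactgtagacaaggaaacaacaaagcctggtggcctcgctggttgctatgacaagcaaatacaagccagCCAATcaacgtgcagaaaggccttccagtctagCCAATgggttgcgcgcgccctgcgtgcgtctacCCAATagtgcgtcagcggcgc
Cdk1, chr10:69352913-69353112, minus strand: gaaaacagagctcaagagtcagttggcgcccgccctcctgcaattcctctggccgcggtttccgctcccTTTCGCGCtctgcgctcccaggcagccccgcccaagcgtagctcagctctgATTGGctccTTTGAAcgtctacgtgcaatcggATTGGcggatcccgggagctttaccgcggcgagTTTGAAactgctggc
Mki67, chr7:135716380-135716579, minus strand: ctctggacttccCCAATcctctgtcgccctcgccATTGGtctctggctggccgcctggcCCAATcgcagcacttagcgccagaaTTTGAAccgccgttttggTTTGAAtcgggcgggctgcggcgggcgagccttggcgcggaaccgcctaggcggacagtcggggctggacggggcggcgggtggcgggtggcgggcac
Mycn, chr12:12941837-12942036, minus strand: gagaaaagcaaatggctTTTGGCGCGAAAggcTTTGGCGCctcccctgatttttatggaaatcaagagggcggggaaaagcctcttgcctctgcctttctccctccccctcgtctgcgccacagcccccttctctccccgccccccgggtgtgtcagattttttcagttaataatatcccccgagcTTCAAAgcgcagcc
Peaks covered all 200 bases of the Mcm5, Mcm6, Cdk1 and Mki67 stretches in both lists. They covered 200 bases of the Ccnb2 stretch in the pSHF list and 173 in the HT list, and 117 bases of the Mycn stretch in the pSHF list and 200 in the HT list.

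Cell cycle promoters held E2F, CHR, CCAAT and GC box letters more often than promoters at large, with E2F and CHR spread unevenly over the roles. An E2F motif stood in the windows of 10 of 29 cell cycle genes, against 3.33% of the 17274 protein-coding genes with a window and 2.26% of all 32851 windows. It was found in 4 of 6 replication genes (Mcm3, Mcm5, Mcm6 and Mcm7), 1 of 9 mitosis genes (Cdk1) and 0 of 5 G1 cyclin and inhibitor genes. A CHR stood in 12 of 29 cell cycle genes, against 18.0% of protein-coding genes and 17.9% of windows. It was found in 7 of 9 mitosis genes, 1 of 6 replication genes and 0 of 5 G1 cyclin and inhibitor genes. The 5 E2F and pocket protein genes with a window had an E2F motif in 3 and a CHR in 3. A CCAAT box stood in 21 of 29 genes, against 42.7% of protein-coding genes and 37.4% of windows, and in 15 of 15 replication and mitosis genes. CHR and CCAAT box occurred together in 7 of 9 mitosis genes, against 7.46% of protein-coding genes and 6.95% of windows. The GC box (GGGCGG) stood in 26 of 29 genes, against 49.8% of protein-coding genes and 35.7% of windows. A GLI motif (TGGGTGGTC), the site of the Hedgehog effectors, stood in 0 of 29 windows, against 0.214% of protein-coding genes and 0.253% of windows. The only overlap between different motifs in these windows was of an E2F motif with a CCAAT box, at Mcm7. A match is a description of the sequence, not a bound site.

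Most of the peaks of cell cycle genes were found in both tissues. Peaks with an overlap of 1 bp or more between the lists were called shared and the others restricted, a word that speaks of the calling threshold and not of closed chromatin. Of the 103 pSHF peaks 26 were pSHF-restricted (25.2%, 95% Clopper-Pearson interval 17.2 to 34.8), against 31.8% of all pSHF peaks given to protein-coding genes. Of the 112 HT peaks 39 were HT-restricted (34.8%, 26.1 to 44.4), against 43.7%. The share of all genes lay inside the interval in both lists. At gene ends 5 of 46 pSHF peaks (10.9%, 3.62 to 23.6) and 4 of 43 HT peaks (9.30%, 2.59 to 22.1) were restricted, against 11.3% and 13.7% over all genes. Away from gene ends 21 of 57 pSHF peaks (36.8%, 24.4 to 50.7) and 35 of 69 HT peaks (50.7%, 38.4 to 63.0) were restricted, against 44.3% and 57.3%. Restricted peaks of these genes were thus mostly distal in both lists, at shares near those of all genes.

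**Figure D2:**
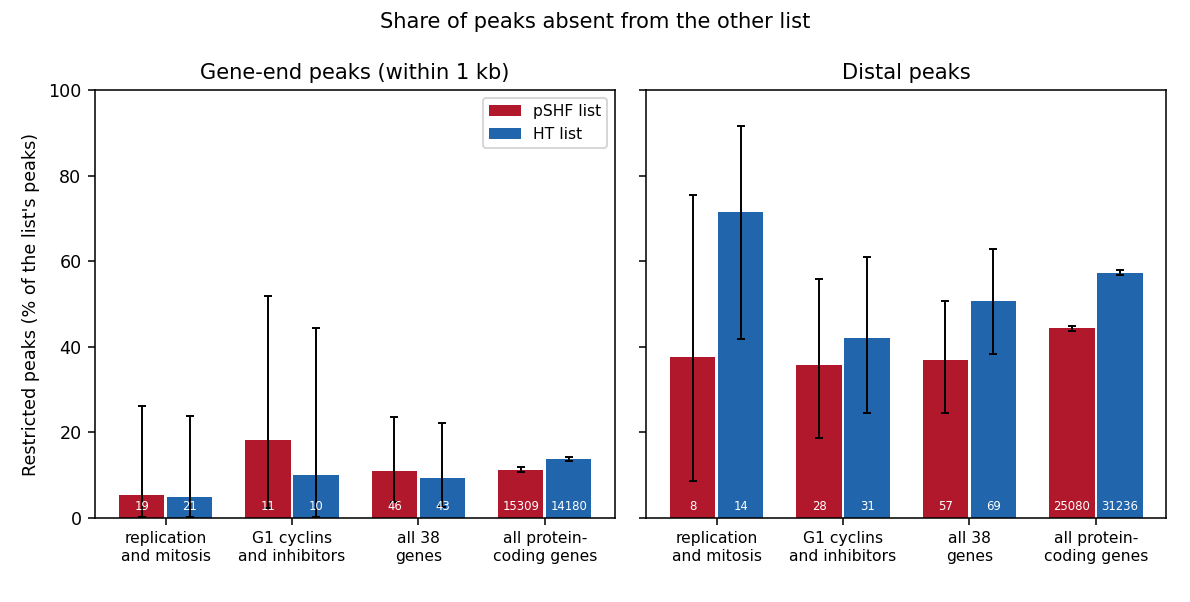
Restricted peaks as a percentage of the list's peaks (vertical axis), at gene ends (left) and distal (right), with red bars for the pSHF list, blue bars for the HT list, exact 95% intervals as lines and the number of peaks at the foot of each bar. The gene-end shares of the 38 genes are 10.9% in pSHF and 9.30% in HT, the distal ones 36.8% and 50.7%, and the intervals of the gene groups overlap one another and the shares of all genes.

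Replication and mitosis genes differed from G1 cyclin and inhibitor genes in where their peaks lay, and not resolvably in how many were restricted. The 18 replication and mitosis genes had 27 pSHF and 35 HT peaks, of which 19 (70.4%, 49.8 to 86.2) and 21 (60%, 42.1 to 76.1) were at gene ends. The 9 G1 cyclin and inhibitor genes had 39 pSHF and 41 HT peaks, of which 11 (28.2%, 15.0 to 44.9) and 10 (24.4%, 12.4 to 40.3) were at gene ends. Over all genes the gene-end share was 37.9% in the pSHF list and 31.2% in the HT list. The intervals of the gene groups did not overlap in either list. They take peaks as independent, though peaks clustered at some genes. Of the peaks of G1 cyclin and inhibitor genes, Ccnd3 and Ccne1 held 7 and 8 in the pSHF list, with 0 and 2 at gene ends. In the HT list they held 10 and 8, with 1 and 1 at gene ends. Whether the contrast holds gene by gene was not tested. The room around the genes differed too: the genome nearest to a gene had a median length of 20.5 kb for replication and mitosis genes and 75.6 kb for G1 cyclin and inhibitor genes. Per 100 kb of that room, the first group had 1.21 distal pSHF peaks and 2.13 distal HT peaks, and the second 4.45 and 4.92.

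Restricted peaks made up 4 of the 27 pSHF peaks of replication and mitosis genes (14.8%, 4.19 to 33.7) and 11 of their 35 HT peaks (31.4%, 16.9 to 49.3). They made up 12 of the 39 pSHF peaks of G1 cyclin and inhibitor genes (30.8%, 17.0 to 47.6) and 14 of their 41 HT peaks (34.1%, 20.1 to 50.6). The intervals of the groups overlapped, and each held the share of all genes. At gene ends 1 of 19 pSHF peaks and 1 of 21 HT peaks of replication and mitosis genes were restricted. For G1 cyclin and inhibitor genes it was 2 of 11 and 1 of 10. The all-gene shares at gene ends, 11.3% in the pSHF list and 13.7% in the HT list, lay inside the intervals of both groups. Distal restricted peaks numbered 3 of 8 in the pSHF list and 10 of 14 in the HT list for replication and mitosis genes. For G1 cyclin and inhibitor genes they numbered 10 of 28 and 13 of 31. The distal all-gene shares, 44.3% in the pSHF list and 57.3% in the HT list, also lay inside the intervals of both groups.

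The balance of restricted peaks leaned to HT at more genes than to pSHF, as it did over all genes. More pSHF-restricted than HT-restricted peaks stood at 4 genes (Cdkn2c, Mycn, Cdk1 and Cdkn1a), against 14.9% of all genes. More HT-restricted peaks stood at 10 genes, against 29.3% of all genes. A restricted peak in either list stood at 18 genes, against 50.6% of all genes, and 20 genes had none. 12 genes had a single, shared peak in each list, among them Mcm2, Mcm3, Ccnb2, Top2a, Plk1, Bub1 and Cdc20. Of the 7 replication genes only Mcm5 had a restricted peak, of 5.66-fold enrichment in the HT list, 8017 bp outside the gene.

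**Figure D3:**
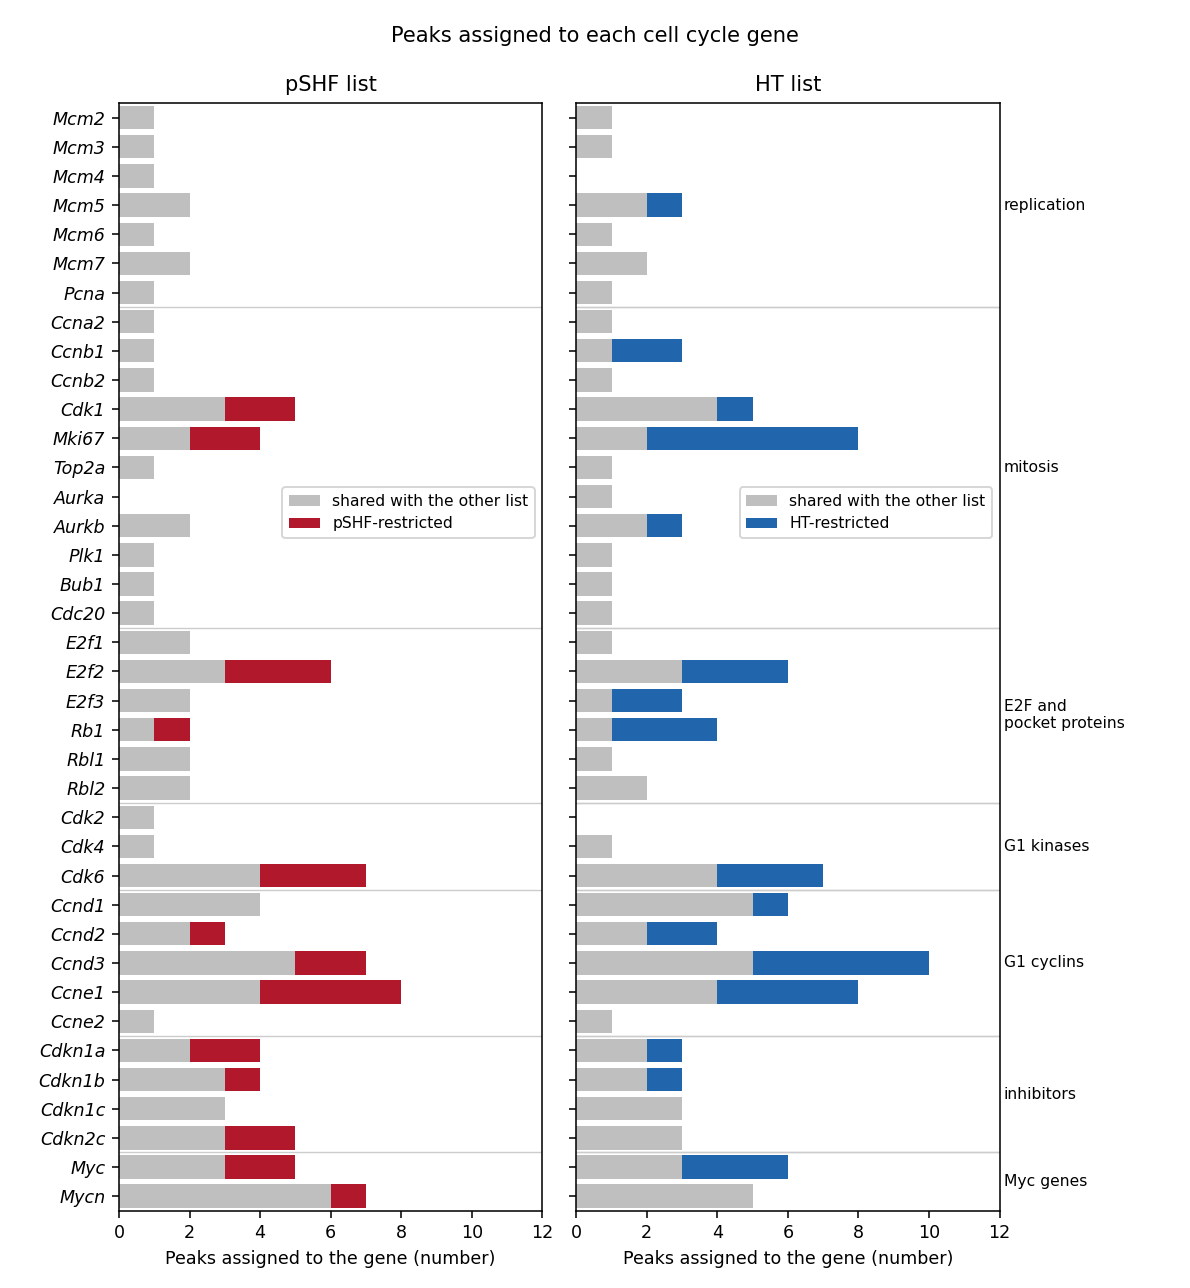
Number of peaks (horizontal axis) given to each of the 38 genes (vertical axis, by role) in the pSHF list (left) and the HT list (right), with shared peaks in grey and restricted peaks in colour. Coloured bars are missing from most replication and mitosis genes, Mki67 has 2 pSHF-restricted and 6 HT-restricted peaks, and Ccnd3 has 2 and 5.

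Mki67 had 2 pSHF-restricted and 6 HT-restricted peaks, the widest difference among the mitosis genes within 100 kb. It rested on 4 HT peaks over 50 kb away: within 50 kb Mki67 had as many pSHF-restricted as HT-restricted peaks (a difference of 0), and the difference at Ccnb1 was -2. In the pSHF list they were a peak of 3.18-fold enrichment at the gene end and one of 4.77-fold 20078 bp outside the gene. In the HT list they lay between 5923 and 99979 bp outside the gene, with 4.39- to 8.75-fold enrichment. The strongest, at chr7:135735730-135735958, ended 508 bp from the distal pSHF-restricted peak, so both lists had a peak near that place without overlap. The outermost HT peak was just inside the 100 kb limit. A shared peak 5404 bp (pSHF) and 5460 bp (HT) outside the gene had 6.15-fold enrichment and 14 reads in the pSHF list, against 10.0-fold and 46 reads in the HT list. Without Mki67, the restricted peaks of replication and mitosis genes numbered 2 in the pSHF list and 5 in the HT list.

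Ccnb1 had 0 pSHF-restricted and 2 HT-restricted peaks, of 3.71- and 4.88-fold enrichment. Cdk1 had 2 pSHF-restricted peaks of 3.55- and 3.16-fold and 1 HT-restricted peak of 4.25-fold, all with summits 45376 to 46505 bp outside the gene. Their edges were 101 to 326 bp from a peak of the other list. At Aurkb the HT-restricted peak of 5.04-fold ended 215 bp from a pSHF peak. The restricted peaks of these 3 mitosis genes had 3.16- to 5.04-fold enrichment and, apart from 1 Ccnb1 peak at 1523 bp, lay within 1 kb of a peak of the other list.

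Among the pocket protein and E2F genes, Rb1 held the strongest HT-restricted peak of the 38 genes. It lay inside the gene at chr14:73295614-73295804, 30246 bp from the nearer gene end, with 10.4-fold enrichment and 18 reads, and the nearest pSHF peak was 9979 bp or more from each of the 3 HT-restricted peaks of Rb1. Rb1 had 1 pSHF-restricted peak, of 4.85-fold enrichment. E2f3 had 0 pSHF-restricted and 2 HT-restricted peaks, of 5.95-fold inside the gene and of 4.22-fold at a listed alternative start. E2f2 had 3 of each. Around its first listed start the pSHF list had peaks of 3.11- and 3.70-fold just inside the gene and the HT list one of 5.21-fold across the start, with 34 bp between the nearest edges. Cdk6 had 3 pSHF-restricted peaks of 3.65- to 4.13-fold and 3 HT-restricted peaks of 3.23- to 4.37-fold.

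Ccnd3 encodes the D-type cyclin with the largest difference, 2 pSHF-restricted against 5 HT-restricted peaks. Both pSHF-restricted peaks had 3.77-fold enrichment and 6 reads. The HT-restricted peaks had 4.49- to 6.14-fold enrichment and 11 to 35 reads, and all 5 lay inside the gene, the one at its first listed start included. RefSeq lists 2 starts for Ccnd3, and the stretches before them are printed to show the promoter open in the HT list beside the one open in both, with capitals as above.
Ccnd3 first start, chr17:47504851-47505050, plus strand: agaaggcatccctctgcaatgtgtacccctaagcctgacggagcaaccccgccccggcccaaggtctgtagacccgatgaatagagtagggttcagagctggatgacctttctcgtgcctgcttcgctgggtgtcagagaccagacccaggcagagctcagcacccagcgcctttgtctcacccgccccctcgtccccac
Ccnd3 second start, chr17:47593267-47593466, plus strand: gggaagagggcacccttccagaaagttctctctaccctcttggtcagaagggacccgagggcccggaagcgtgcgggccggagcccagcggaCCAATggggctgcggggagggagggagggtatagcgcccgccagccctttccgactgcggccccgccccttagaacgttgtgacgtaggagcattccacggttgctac
Peaks covered 0 bases of the stretch before the first start in the pSHF list and 29 in the HT list, and 186 bases of the stretch before the second in the pSHF list and 187 in the HT list. The first stretch held no E2F, CHR or CCAAT letters, and the second held 1 CCAAT box. The peak at the second start had 6.64-fold enrichment and 30 reads in the pSHF list, against 6.70-fold and 37 reads in the HT list. Without Ccnd3, G1 cyclin and inhibitor genes had 9 HT-restricted peaks.

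Ccne1, Ccnd1 and Ccnd2 showed smaller differences. Ccne1 had 4 pSHF-restricted peaks of 3.23- to 4.57-fold and 4 HT-restricted peaks of 2.91- to 7.57-fold enrichment. Ccnd1 had none in the pSHF list and 1 in the HT list, of 4.92-fold, inside the gene. Ccnd2 had 1 pSHF-restricted peak, of 5.12-fold and 98901 bp outside the gene, and 2 HT-restricted peaks of 2.55- and 3.41-fold inside it. The Ccnd2 pSHF peak lay just inside the 100 kb limit, and an HT-restricted peak of 4.36-fold just outside it, at 100341 bp and 908 bp from the pSHF peak, was not counted.

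Of the inhibitor peaks, 5 of 16 in the pSHF list were restricted (31.3%, 11.0 to 58.7), close to the 31.8% of all genes, and 2 of 12 in the HT list (16.7%, 2.09 to 48.4), where the 43.7% of all genes lay inside the interval. Of the 5 pSHF-restricted peaks, 4 had a −log10 q below 5. Cdkn1a encodes p21, which blocks cyclin-dependent kinases and is a classic target of p53. It held the strongest pSHF-restricted peak of the 38 genes, at chr17:29080746-29081389, 9946 bp before the gene, with 6.60-fold enrichment and 19 reads. Its other pSHF-restricted peak had 3.53-fold and its 1 HT-restricted peak, 21711 bp before the gene, 4.12-fold. Cdkn2c had 2 pSHF-restricted peaks of 4.03- and 4.85-fold, whose edges were 26 and 174 bp from HT peaks, and 0 HT-restricted peaks. With −log10 q of at least 5 in both lists, its difference was 0. Cdkn1b had 1 of each, of 3.56-fold in the pSHF list and 3.97-fold in the HT list. Cdkn1c had 0 of each and 3 shared peaks in each list.

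Cdkn1a also had one of the largest differences among shared peaks, at a start inside the gene. The 200 bases before that start are printed because the difference lies there. They hold no E2F, CHR or CCAAT letters, so no capitals appear.
Cdkn1a second start, chr17:29093569-29093768, plus strand: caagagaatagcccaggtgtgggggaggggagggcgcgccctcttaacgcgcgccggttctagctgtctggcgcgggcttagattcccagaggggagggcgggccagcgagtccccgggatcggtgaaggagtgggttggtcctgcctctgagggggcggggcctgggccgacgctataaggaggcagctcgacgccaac
Peaks covered 177 of these bases in the pSHF list and 200 in the HT list. The peak had 5.52-fold enrichment and 21 reads in the pSHF list, against 11.6-fold and 41 reads in the HT list. The stretch before the first listed start of Cdkn1a was covered at 0 bases in the pSHF list and 0 in the HT list.

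The strongest restricted peaks of the Myc genes lay far from them. Myc had 2 pSHF-restricted peaks, of 3.23- and 5.13-fold enrichment at 27251 and 59245 bp outside the gene. It had 3 HT-restricted peaks, of 3.75-fold at 809 bp, 3.19-fold at 1839 bp and 7.93-fold at 89211 bp outside the gene. Mycn had 1 pSHF-restricted peak, of 3.77-fold and 6 reads at 84536 bp, and 0 HT-restricted peaks. All 5 HT peaks of Mycn overlapped a pSHF peak.

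**Figure D4:**
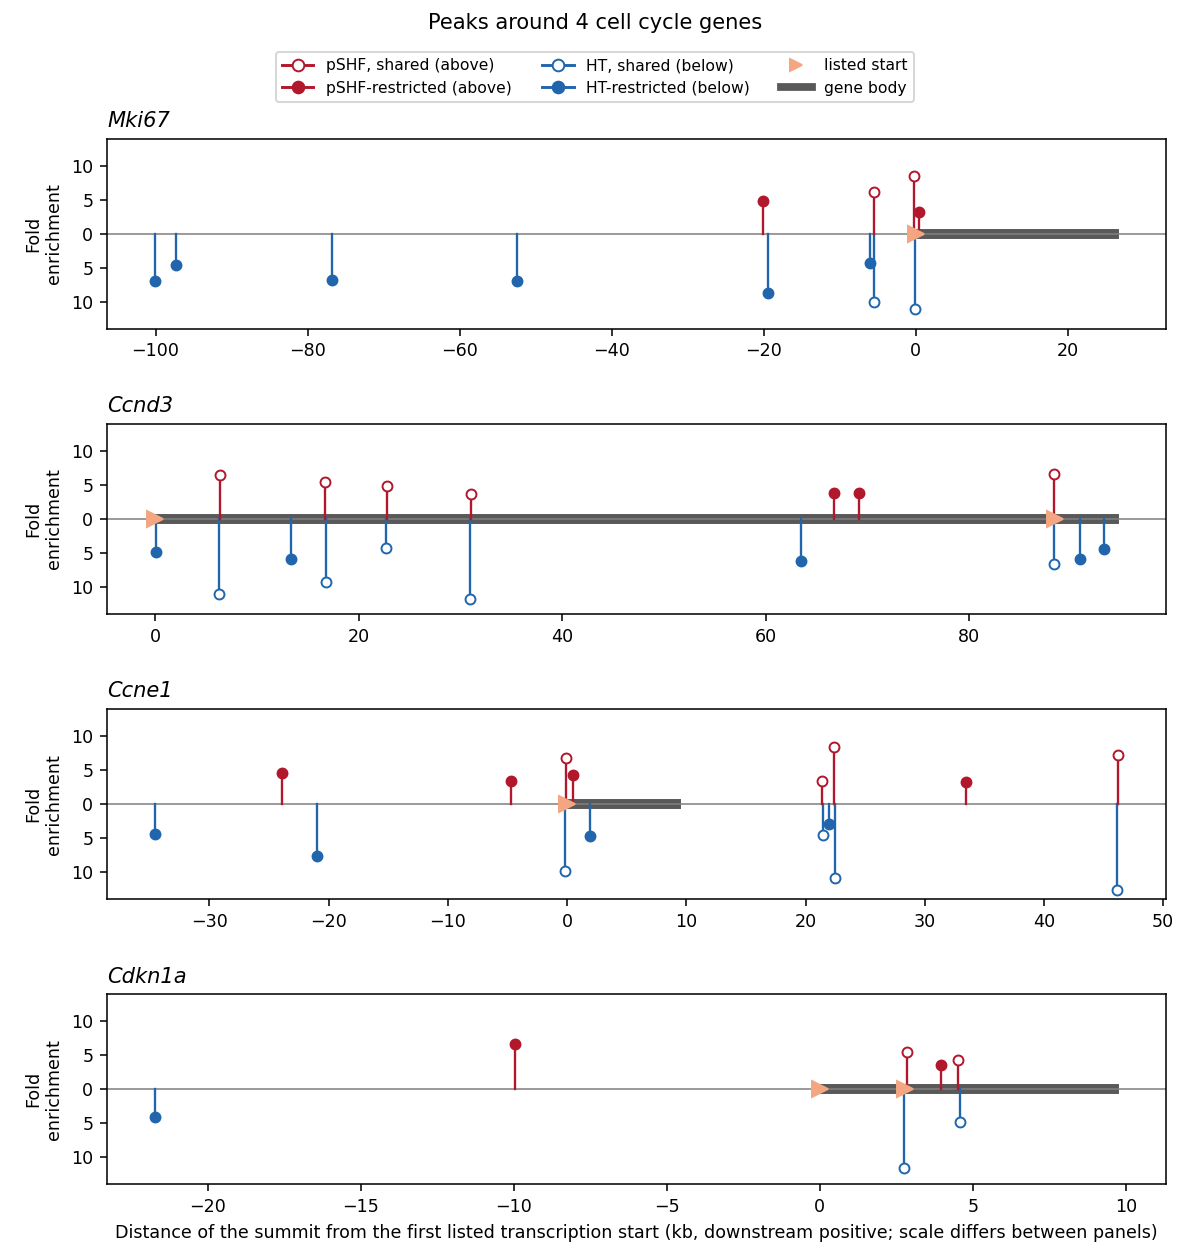
Summits of the peaks of Mki67, Ccnd3, Ccne1 and Cdkn1a, by distance from the first listed start in kb (horizontal axis) and fold enrichment (vertical axis), with pSHF peaks above and HT peaks below the line. Filled points are restricted and open points shared, dark bars are gene bodies and orange arrowheads listed starts. Distal HT-restricted peaks run to the left of Mki67, and the tall open HT points of Ccnd3 and Cdkn1a face lower pSHF points.

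Restricted peaks of cell cycle genes often had a peak of the other list nearby, a measure added after the positions were seen. The nearest edge was within 1 kb for 12 of 26 pSHF-restricted peaks, against 21.5% of all pSHF-restricted peaks. It was within 1 kb for 12 of 39 HT-restricted peaks, against 14.1% of all HT-restricted peaks. At gene ends, where 61.4% of all pSHF-restricted and 52.1% of all HT-restricted peaks lay so near, it was within 1 kb for 5 of 5 peaks in the pSHF list and 3 of 4 in the HT list, the exception being the HT peak at the first start of Ccnd3, at 2513 bp. The median fold enrichment of restricted distal peaks was 3.77 in the pSHF list and 4.72 in the HT list, below the 4.76 and 5.86 of shared distal peaks in the same lists. Over all protein-coding genes the order was the same, with 4.31 and 4.90 for restricted and 4.99 and 6.03 for shared distal peaks.

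Shared peaks of cell cycle genes had height ratios between the tissues close to those of all genes. Each shared peak was paired with its best match in the other list, which gave 72 pairs, 39 at gene ends and 33 distal. Over all 24841 pairs the median log2 ratio of fold enrichment, pSHF over HT, was -0.29, so that the HT value was the higher one at most pairs of any gene. At gene ends the median ratio was -0.38 for the cell cycle genes and -0.32 for all genes, and 36 of 39 pairs were higher in HT as deposited, against 81.4%. At distal pairs it was -0.24 for the cell cycle genes and -0.25 for all genes, and 25 of 33 were higher in HT, against 72.4%. Replication genes had a gene-end median of -0.51 over 9 pairs, mitosis genes -0.38 over 11, G1 cyclins -0.24 over 4 and inhibitors -0.43 over 4. All 20 gene-end pairs of replication and mitosis genes were higher in HT, by a log2 ratio between -0.71 (Mcm5, the second of its peaks) and -0.05 (Cdk1).

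**Figure D5:**
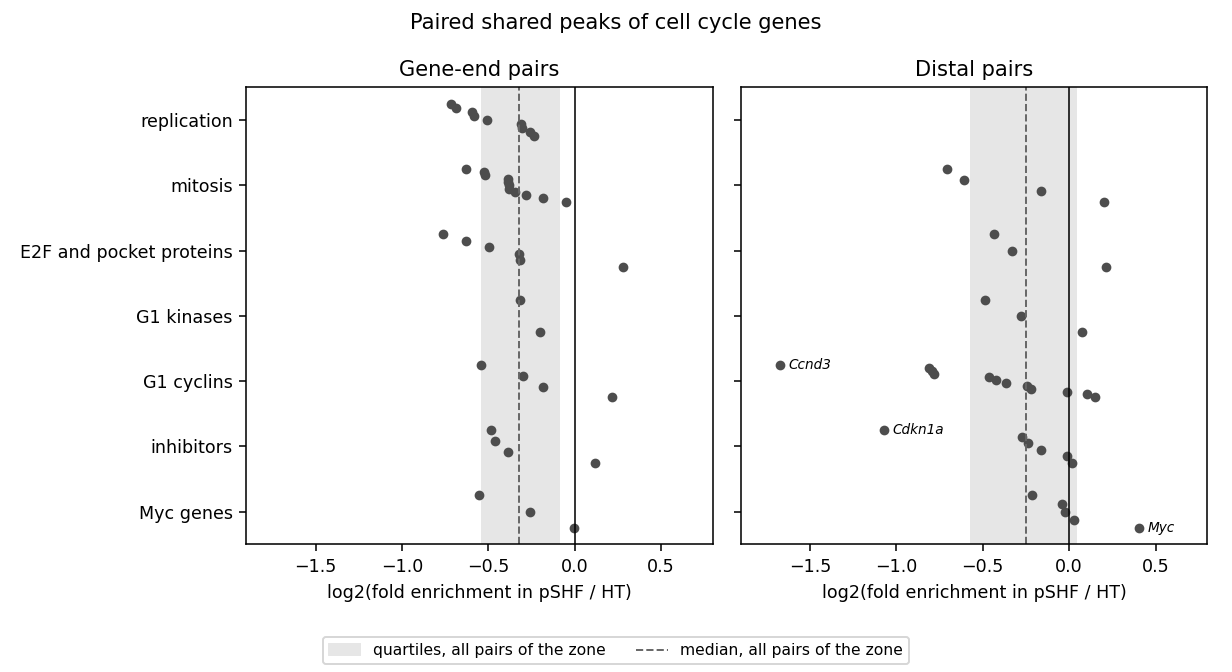
Log2 ratio of fold enrichment, pSHF over HT (horizontal axis), of the 72 paired shared peaks by role (vertical axis), at gene ends (left) and distal (right), 1 point per pair. The grey band and dashed line give the quartiles and median of all pairs of that zone, and the 3 labelled pairs, of Ccnd3, Cdkn1a and Myc, are those past 1.5 times of the median.

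Relative to the median of all pairs, 0 gene-end pairs differed by over 1.5 times in either direction, against 5.43% of all gene-end pairs for pSHF and 4.77% for HT. Among distal pairs 1 was higher in pSHF by that measure, against 11.1% of all distal pairs, and 2 were higher in HT, against 10.6%. The first was a peak inside Myc, 1689 bp (pSHF) from the gene end, of 4.28-fold in the pSHF list and 3.23-fold in the HT list, a log2 ratio of 0.40. Its pileup was 25 reads in the pSHF list and 22 in the HT list, and the counting interval of the log2 pileup ratio, -0.70 to 1.08, held the median of all pairs, -0.34. The Ccnd3 pair, 30992 bp (pSHF) and 30894 bp (HT) into the gene, had 3.71-fold enrichment and 6 reads in the pSHF list, against 11.9-fold and 39 reads in the HT list. Its log2 ratio was -1.68, and the interval of its log2 pileup ratio, -4.23 to -1.45, lay below that median. The other was the peak at the second start of Cdkn1a, with a log2 ratio of -1.07 and an interval of the log2 pileup ratio, -1.80 to -0.17, that held the median of all pairs. Further Ccnd3 peaks, at 6396 and 16720 bp into the gene in the pSHF list, had 6.48- and 5.38-fold in the pSHF list, against 11.1- and 9.33-fold in the HT list. A Ccne1 peak 36714 bp (pSHF) beyond the gene had 7.18-fold and 20 reads in the pSHF list, against 12.6-fold and 36 reads in the HT list. These differences cannot be set against the spread between samples.

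Other genes of the same pathways, from a list of 65 further genes, were counted in the same way. Over all genes, 31.8% of pSHF peaks and 43.7% of HT peaks were restricted, 14.9% of genes leaned to pSHF and 29.3% to HT. The 27 other replication genes had 4 pSHF-restricted of 31 pSHF peaks (12.9%, 3.63 to 29.8) and 12 HT-restricted of 41 HT peaks (29.3%, 16.1 to 45.5). More pSHF-restricted peaks stood at 2 of them and more HT-restricted peaks at 10. Rrm2, a subunit of ribonucleotide reductase, had 1 pSHF-restricted and 3 HT-restricted peaks, Rpa1, which binds single-stranded DNA, 2 and 0, and Cdc6, a helicase loader, 0 and 1. The 19 other mitosis genes had 8 of 38 pSHF peaks and 11 of 34 HT peaks restricted, the balance leaning to pSHF at 2 genes and to HT at 5. Mad2l1, of the spindle checkpoint, had 3 pSHF-restricted peaks against 0 in HT, Cenpf, a kinetochore gene, 2 against 2, and Anln, the gene of the scaffold protein anillin, 0 against 2. The 19 other genes of G1 and inhibition had 11 of 55 pSHF peaks (20%, 10.4 to 33.0) and 26 of 69 HT peaks (37.7%, 26.3 to 50.2) restricted, the balance leaning to pSHF at 1 gene and to HT at 10. Max, the dimer partner of Myc proteins, had 1 pSHF-restricted peak against 4 in HT, the antiproliferative gene Btg2 had 2 against 2, and E2f6, a repressor E2F, 3 against 1. The median gene-end log2 ratio, pSHF over HT, was -0.44 for the replication list, -0.48 for the mitosis list and -0.31 for the G1 list.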

How the data were processed

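Per the labels, ATAC-seq was done on pooled pSHF or atrial tissue. The submitters' processing notes name MACS2 2.1.1, Picard, SAMtools 1.5, Bowtie2 2.3.2 and build mm10. Tool settings, and whether samples were pooled before calling, were not given in the sources used here. Each deposited list gives, for every summit, the authors' score, fold enrichment (a ratio to the caller's background), −log10 p-value and −log10 q-value. Read totals are not given, so depth was judged from the pileup.

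Lines of equal interval were merged, keeping the summit of highest fold (44018 of 58887 lines in pSHF, 49267 of 60223 in HT). Genes came from a RefSeq table of GRCm38.p6, without exons. The deposited fold was taken as (pileup + 1)/(background + 1), and for 100% of summits a whole pileup gave the deposited p-value to within 0.01 (log10). Pairs were reciprocal best overlaps. Shares carry exact 95% intervals, and PCR copies of reads are not independent, so intervals cover counting error only. Python 3.11.15, pandas 2.3.3, NumPy 2.4.6, SciPy 1.17.1 and Matplotlib 3.10.9 were used, and overlap, nearest-gene and pileup steps were tested on simulated data. Genes named were the 10 with the largest difference in restricted peaks, the 3 strongest and the weakest of each role at gene ends, a fixed set of 12, and the 3 of each further list with the most restricted peaks; a few others were named after their values were seen. The members and lists were chosen with earlier results of these data known. Alternatives were another overlap, thresholds, distances, gene-end windows and centrings.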

Additional observations from a re-analysis of the deposited data

How the results depend on the processing

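No paired analysis was possible because each tissue has 1 peak list and no value per sample. Restricted shares over all genes were computed only with an overlap of 1 bp and a distance of 100 kb. Under the changed settings below, whether the restricted counts and shares of cell cycle genes differ from those of all genes was not tested. Of the group values recomputed under alternatives, 114 were labelled close and 44 moved. Of those of single genes, 37 were labelled close, 30 moved and 3 changed sign. The label was loose. It took in the HT-restricted peaks, 39 and with 50% reciprocal overlap 58. It also took in the centred gene-end median of G1 cyclin and inhibitor genes, -0.05 by fold and 0.06 by pileup. Some values labelled close could not change, such as those of a group without the gene left out. With 50% reciprocal overlap, pSHF-restricted peaks numbered 48, and restricted shares were 32.6% (pSHF) and 27.9% (HT) at gene ends and 57.9% and 66.7% distally; G1 cyclin and inhibitor genes had 19 pSHF-restricted peaks, shares of 48.7% and 51.2%. With −log10 q of at least 5 in both lists, 7 pSHF-restricted peaks were left (20.8% of distal ones). Replication and mitosis genes kept 0 (0%) and G1 cyclin and inhibitor genes 4. HT-restricted peaks numbered 35 at that setting, 10 at replication and mitosis genes and 10 at G1 cyclin and inhibitor genes. The difference of restricted peaks, pSHF minus HT, changed sign at Mycn (-1), Ccnd1 (1) and Cdk1 (-1). At each gene a shared peak lost its match below that limit and was then counted as restricted. The −log10 q was 5.14 (HT) against 4.88 (pSHF) at Mycn, 6.70 (pSHF) against 3.50 (HT) at Ccnd1 and 7.31 (HT) against 2.98 (pSHF) at Cdk1. For restricted peaks at that limit set against the whole other list, the difference was 0 at each of these genes.

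Counting only restricted peaks that reached the median fold of their list gave 5 pSHF-restricted and 13 HT-restricted peaks, shares of 0% (pSHF) and 0% (HT) at gene ends and 22.7% of distal pSHF peaks. Replication and mitosis genes then had 0 (0%) and 5, and G1 cyclin and inhibitor genes 3 (15.8%) and 4 (20%). Restricted peaks with −log10 q of at least 5, set against the whole other list, numbered 3 in pSHF (2.56% at gene ends, 8.33% distal), 0 (0%) at replication and mitosis genes, and 3 (13.0%) pSHF and 7 HT at G1 cyclin and inhibitor genes. The 4 pSHF-restricted peaks of replication and mitosis genes thus lay below both limits. In the HT list 26 restricted peaks with −log10 q of at least 5 were left, 9 of them at replication and mitosis genes.

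Within 50 kb, replication and mitosis genes had 7 HT-restricted peaks; within 500 kb, the 38 genes had 41 pSHF- and 61 HT-restricted peaks, replication and mitosis genes 7 pSHF-restricted ones. Median log2 ratios not centred on all pairs were -0.38 at gene ends and -0.24 distally, -0.38 at gene ends of replication and mitosis genes and -0.34 at those of G1 cyclin and inhibitor genes; centred, they were -0.09, 0.05, -0.09 and -0.05. In settings chosen after seeing the data, leaving out Mki67 left 2 pSHF- and 5 HT-restricted peaks at replication and mitosis genes, and leaving out Ccnd3 left 9 HT-restricted peaks at G1 cyclin and inhibitor genes. Small counts limit every share, and samples within a tissue could not be compared.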
